A study of Mus musculus with 7 samples.

Results

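Inhibitory receptors of the immunoglobulin superfamily, with the phosphatase that many of them recruit, were followed in lineage-negative fetal liver cells. The 8 genes were Lair1, Pirb, Siglece, Sirpa, Pilra, Cd300a, Cd300lf and Ptpn6. They were chosen by symbol, and all 8 had a row among the 35976 symbols of the count table. The choice was made with results of the same comparison known, the call of Lair1 among them, so the members' differences between the groups are given as a description and support nothing. All 8 also passed the filter on low counts.

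The tested embryos were Vav1-iCre Brd9fl/fl (4 libraries, here Vav1-iCre libraries) and the controls were Brd9fl/fl embryos without the recombinase (3 libraries). Both groups were C57BL/6, CD45.2(+) and at stage E14.5, and both carried Brd9 alleles flanked by loxP sites. Per the study design, sires were Brd9fl/fl and dams Vav1-iCre; Brd9fl/fl. The Vav1 promoter drives the recombinase in blood cells, and whether other cells in the liver keep Brd9 was not measured. Every Vav1-iCre library and no control carries the recombinase, whose own action and the loss of Brd9 therefore cannot be told apart. Brd9 encodes a bromodomain subunit of a BAF chromatin remodelling complex. Whether a library came from 1 embryo or a pool is not given in the sources used here, so the spread between libraries may be partly technical.

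Receptors of this kind carry short tyrosine motifs (ITIMs) in their cytoplasmic tails. When the receptor meets its ligand, Src-family kinases phosphorylate the motif, SH2-domain phosphatases such as Ptpn6 (SHP-1) dock there, and signals from activating receptors, which act through ITAM adaptors such as Tyrobp and Fcer1g, are damped. In myeloid cells the ligands include collagens for Lair1, class I MHC molecules for Pirb, sialic acid sugars for Siglece and Cd47 for Sirpa.

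Total counts ran from 18748885 to 21861876 in the Vav1-iCre libraries and from 21831430 to 23571878 in the controls. Levels are given in CPM, reads scaled to a common library total. Brd9 averaged 11.5 ± 2.0 CPM (SD, n = 4) in Vav1-iCre libraries and 33.1 ± 3.0 CPM (SD, n = 3) in controls, without overlap. The progenitor gene Kit ran from 160 to 212 CPM in Vav1-iCre libraries and from 267 to 313 CPM in controls. It was not called in edgeR (log2 fold change -0.59, adjusted p = 0.0558), while DESeq2 called it lower (adjusted p = 2.6e-04). Kit had the largest fall of the 9 progenitor markers, whose median log2 fold change was -0.15, with 0 called in edgeR. Of the 9, 7 had negative values and 2, Gata2 (0.49) and Ly6a (0.88), positive ones. The Ly6a value rests on 9 to 16 reads in Vav1-iCre libraries and 3 to 10 in controls (SE 0.48, edgeR adjusted p = 0.573). Vav1-iCre replicate 3 stood apart: it held 18.2 CPM of Cd3g and 73 reads of Cd3e, T cell receptor complex genes, against at most 1.02 CPM of Cd3g and 0 reads of Cd3e in each other library. Where leaving it out moved a member by over 1.5 times, that value is given. Transcripts of myeloid cells were present in the fraction. Their summed level was lower in each Vav1-iCre library than in each control for the neutrophil, monocyte and macrophage lists. The eosinophil, basophil and mast cell sums overlapped, at 198 to 713 CPM in Vav1-iCre libraries and 291 to 638 CPM in controls. Of these 8 genes edgeR called 1, Epx, lower, against 0.545% of all tested genes, and the median log2 fold change was -0.23. Dendritic cell sums overlapped too, at 1.15 to 5.59 CPM in Vav1-iCre libraries and 2.765 to 5.59 CPM in controls. The 15 neutrophil markers summed to 1644 to 3779 CPM in Vav1-iCre libraries and 4964 to 8839 CPM in controls. In edgeR 7 of 14 tested were called lower, against 0.545% of all tested genes. Mpo alone held 761 to 1596 CPM in Vav1-iCre libraries and 2661 to 4609 CPM in controls. Of the 14, 13 had a negative log2 fold change. Ltf (-0.53) and Lcn2 (-0.42), among others, overlapped between the groups, and Mmp8 was higher (1.97, edgeR adjusted p = 0.320). The 10 monocyte markers summed to 43.0 to 148 CPM in Vav1-iCre libraries and 203 to 332 CPM in controls, with 1 of 10 called lower. That gene, F13a1, made up much of the gap, with 3.71 to 10.7 CPM in Vav1-iCre libraries and 67.1 to 115 CPM in controls. All 10 had a negative log2 fold change, but only 3 had no overlap between the groups, against 6.81% of all genes lower without overlap. The 12 macrophage markers summed to 76.9 to 132 CPM in Vav1-iCre libraries and 161 to 261 CPM in controls, with 0 of 11 tested called in edgeR; 7 were lower at an unadjusted p under 0.05, against 6.90% of all genes, DESeq2 called 6 lower, against 1.97%, and limma-voom 0. The sum of the 7 erythroid markers went the other way, at 2416 to 3291 CPM in Vav1-iCre libraries and 1449 to 2374 CPM in controls. EdgeR and limma-voom called 0, DESeq2 called 2 higher, and 3 were higher at an unadjusted p under 0.05 in edgeR, against 3.95% of all genes. Hba-a1 averaged 1282 CPM in Vav1-iCre libraries and 660 CPM in controls, while Tfrc (log2 fold change 0.01) and Epor (-0.09) hardly differed. The 6 hepatocyte markers summed to 10470 to 18560 CPM in Vav1-iCre libraries and 8259 to 14500 CPM in controls, overlapping. None of the markers was without reads in all libraries. In bulk RNA, fewer cells of a type and less RNA per cell cannot be told apart, and the part of these markers in the results below was not tested.

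Lair1 fell in the Vav1-iCre libraries. It encodes a collagen receptor of leukocytes with ITIMs in its tail and lies on the minus strand of chromosome 7, from 4007073 to 4073567 (GRCm38, RefSeq). The Vav1-iCre libraries held 17, 31, 36 and 22 reads of Lair1 (replicates 1 to 4), and the controls 95, 135 and 119 reads (replicates 1 to 3). Scaled, these were 0.929, 1.40, 1.71 and 1.07 CPM in Vav1-iCre libraries and 4.38, 5.59 and 5.47 CPM in controls. The groups lay far apart: the highest Vav1-iCre library, replicate 3, had an exact binomial 95% interval of 1.19 to 2.36 CPM and the lowest control, replicate 1, one of 3.54 to 5.35 CPM. These intervals cover counting error only. The means were 1.28 ± 0.35 CPM (SD, n = 4) in Vav1-iCre libraries and 5.15 ± 0.67 CPM (SD, n = 3) in controls, which makes Lair1 4.03-fold lower. On the log2 scale the fold change came to -2.0 with an SE of 0.25. The adjusted p was 0.0101 (Benjamini-Hochberg over all 14679 tested genes, edgeR quasi-likelihood test).

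Lair1 was the member called at an adjusted p under 0.05; the other 7 were not called. Over all tested genes 0.559% were called in the same edgeR fit, 0.545% lower and 0.0136% higher. The limma-voom fit also called Lair1 alone among the members, with 0.49% of all genes called lower. Without Vav1-iCre replicate 3 the log2 fold change of Lair1 was -2.17 (adjusted p = 0.0102). The call was lost without control replicate 3 (log2 fold change -1.955, adjusted p = 0.0712) and without Vav1-iCre replicate 2 (-2.05, adjusted p = 0.0538).

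**Figure D1:**
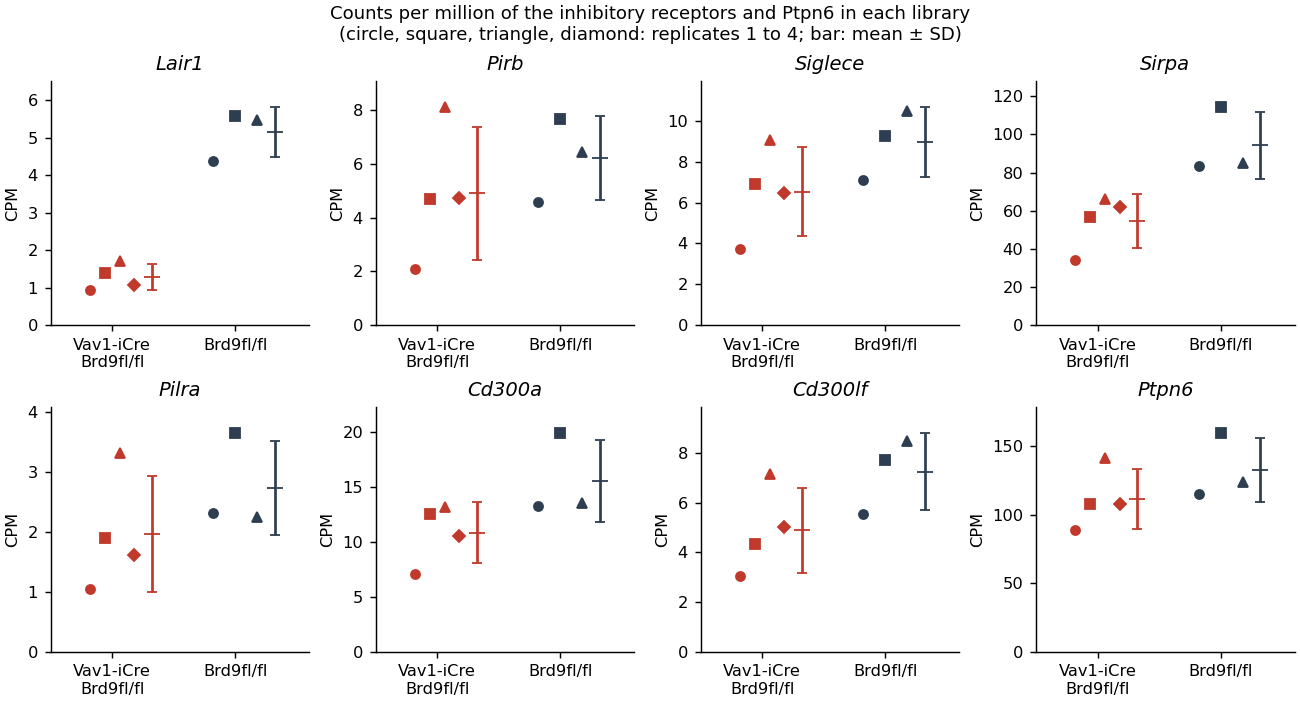
Level in CPM (vertical axes from 0) of the 8 members in the 4 Vav1-iCre Brd9fl/fl libraries (left, red) and the 3 Brd9fl/fl libraries (right, dark); symbols stand for replicates and bars for mean ± SD. Lair1 lies between 0.929 and 1.71 CPM in Vav1-iCre libraries and between 4.38 and 5.59 CPM in controls, while 5 of the other members overlap between the groups.

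Promoter windows (RefSeq, GRCm38.p6) were at hand for 7 members, and Sirpa, which had none, was not searched. Of these 7, only Lair1, Siglece, Cd300a and Cd300lf held the letters GAGGAA on either strand in the last 50 bases before their annotated start. GAGGAA is the core of sites bound by PU.1, the Spi1 product, a transcription factor that many myeloid genes need. Of 32851 windows of the same length over all genes, 5.18% held it. In the last 250 bases before the start 6 of the 7 members held GAGGAA, against 23.3% of all windows. The letters TGTGGT, the RUNX core, stood in the 250 bases of 1 of 7 members, against 14.0% of all windows. The letters TTGCNNAA, found in C/EBP sites, stood in 3 of 7, against 9.56%, and AGATAA, the GATA core, in 1 of 7, against 9.99%. Both strands were searched for all 4 motifs, and the 50-base window was chosen after the positions were seen. The 100 bases before the start of the 4 genes are printed 5′ to 3′ on the gene's strand, in lower case with GAGGAA or its reverse complement in capitals, to show how near the start the match lies.
Lair1, chr7:4063205-4063304, minus strand: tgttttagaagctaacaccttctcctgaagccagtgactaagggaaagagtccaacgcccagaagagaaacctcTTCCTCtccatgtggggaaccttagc
Siglece, chr7:43660162-43660261, minus strand: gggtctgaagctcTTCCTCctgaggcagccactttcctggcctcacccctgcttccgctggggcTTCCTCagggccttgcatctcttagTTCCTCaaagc
Cd300a, chr11:114889941-114890040, plus strand: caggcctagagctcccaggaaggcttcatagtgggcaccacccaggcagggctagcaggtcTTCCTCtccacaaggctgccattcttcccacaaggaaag
Cd300lf, chr11:115133993-115134092, minus strand: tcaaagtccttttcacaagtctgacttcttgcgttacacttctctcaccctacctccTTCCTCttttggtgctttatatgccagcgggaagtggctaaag

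In all 4 genes the match read TTCCTC on the gene's strand. It began 26 bases before the start in Lair1, 39 in Cd300a and 43 in Cd300lf, and in Siglece at 11 and 36 bases before the start. No exon of the GENCODE M21 annotation lay under these 4 windows; the RefSeq gene models of Lair1, Siglece, Cd300a and Cd300lf extend farther upstream. The gene for PU.1, Spi1, had 42.8, 50.5, 75.8 and 50.7 CPM in Vav1-iCre libraries and 63.7, 103 and 74.1 CPM in controls, overlapping between the groups (log2 fold change -0.54, SE 0.21, edgeR adjusted p = 0.386). A match of letters is no evidence of binding, and the data hold no binding measurement.

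Sirpa, the receptor for the "don't eat me" ligand Cd47, had the next largest difference. The gene spans 129591042 to 129632228 of chromosome 2, plus strand. The Vav1-iCre libraries held 34.4, 56.7, 66.2 and 62.1 CPM and the controls 83.5, 114 and 84.8 CPM. All 4 Vav1-iCre libraries lay below all 3 controls. The means were 54.9 ± 14.2 CPM in Vav1-iCre libraries (SD, n = 4) and 94.2 ± 17.4 CPM in controls (SD, n = 3), with a log2 fold change of -0.78 (SE 0.21, edgeR adjusted p = 0.168). DESeq2 called it lower (adjusted p = 0.0143), as did the edgeR fit with no filter on low counts (adjusted p = 0.0428), where 1.97% and 0.887% of tested genes were called lower. The authors' deposited table, lists Sirpa at a log2 fold change of -0.78 with an adjusted p = 0.0149, and Lair1 at -2.0 with an adjusted p = 2.4e-09. Among the 8 members, 2 are under 0.05 in the authors' deposited table, and 1.88% of all genes with an adjusted p are listed there as lower.

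The CD300 pair lies in a cluster of related receptors on chromosome 11. Cd300a, an ITIM receptor for phospholipids of dying cells on myeloid cells (114889152 to 114901946, plus strand), had 7.05, 12.55, 13.2 and 10.6 CPM in Vav1-iCre libraries and 13.3, 19.9 and 13.6 CPM in controls. The groups did not overlap, but the gap was small: 13.22 CPM in Vav1-iCre replicate 3 against 13.27 CPM in control replicate 1. Its log2 fold change was -0.52 (SE 0.23, edgeR adjusted p = 0.460), or -0.31 without control replicate 2. Cd300lf, another inhibitory member of the cluster (115116214 to 115135372, minus strand), had 3.06, 4.34, 7.15 and 5.02 CPM in Vav1-iCre libraries and 5.53, 7.74 and 8.51 CPM in controls. Vav1-iCre replicate 3 lay within the control range, and the log2 fold change was -0.57 (SE 0.28, edgeR adjusted p = 0.515). Rab37 overlaps Cd300lf on the opposite strand, and since the strand setting of the counting is not given in the sources used here, reads of such a pair may be mixed.

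Siglece and Pirb share chromosome 7 with Lair1. Siglece, a sialic acid receptor of neutrophils, monocytes and macrophages (43648882 to 43672044, minus strand), had 3.71, 6.91, 9.05 and 6.48 CPM in Vav1-iCre libraries and 7.10, 9.27 and 10.48 CPM in controls. Vav1-iCre replicate 3 again lay inside the control range, and the log2 fold change was -0.45 (SE 0.27, edgeR adjusted p = 0.610), or -0.26 without Vav1-iCre replicate 1. Pirb, the mouse class I MHC receptor related to the human LILRB family (3712505 to 3720382, minus strand), had 2.08, 4.70, 8.10 and 4.73 CPM in Vav1-iCre libraries and 4.56, 7.66 and 6.44 CPM in controls. In Vav1-iCre replicate 3 Pirb stood above every control, while replicate 1 lay below every control. Its log2 fold change was -0.34 (SE 0.38, edgeR adjusted p = 0.779). Single libraries moved this value: it was -0.70 without Vav1-iCre replicate 3, -0.10 without Vav1-iCre replicate 1, -0.52 without control replicate 1 and -0.16 without control replicate 2.

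Pilra, an ITIM receptor paired with the activating Pilrb receptors (chromosome 5, 137821952 to 137836278, minus strand), had 1.04, 1.90, 3.32 and 1.61 CPM in Vav1-iCre libraries and 2.30, 3.64 and 2.25 CPM in controls. These values rest on 19 to 70 reads in Vav1-iCre libraries and 49 to 88 reads in controls. The groups overlapped through Vav1-iCre replicate 3, and the log2 fold change was -0.47 (SE 0.38, edgeR adjusted p = 0.696). It was -0.85 without Vav1-iCre replicate 3, -0.27 without Vav1-iCre replicate 1 and -0.21 without control replicate 2. Zcwpw1 overlaps Pilra, and Gm20531 overlaps Ptpn6, on the opposite strand. Ptpn6, the phosphatase (chromosome 6, 124720707 to 124738709, minus strand), had 89.0, 107.5, 141 and 108 CPM in Vav1-iCre libraries and 115, 160 and 124 CPM in controls. Its difference was the smallest of the members, a log2 fold change of -0.25 (SE 0.16, edgeR adjusted p = 0.619), and Vav1-iCre replicate 3 lay within the control range. It was -0.39 without Vav1-iCre replicate 3, -0.16 without Vav1-iCre replicate 1 and -0.10 without control replicate 2.

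Of the 8 members, 8 had a negative log2 fold change, against 47.6% of all tested genes. Unadjusted p-values under 0.05 were held by 3 members, Lair1, Sirpa and Cd300a, against 6.90% of all genes lower and 3.95% higher at that level. Without Vav1-iCre replicate 3 there were 7, all but Pirb, against 7.67% of all genes lower in that fit. There were 2, Lair1 and Sirpa, without Vav1-iCre replicate 1, without Vav1-iCre replicate 4 or without control replicate 2. The same 3 members had no overlap between the groups, against 6.81% of all genes lower without overlap. The median log2 fold change was -0.50 over the members and -0.47 without Lair1, against 0.011 over all tested genes. Because the rule was set with this comparison known, nothing is read from these shares.

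**Figure D2:**
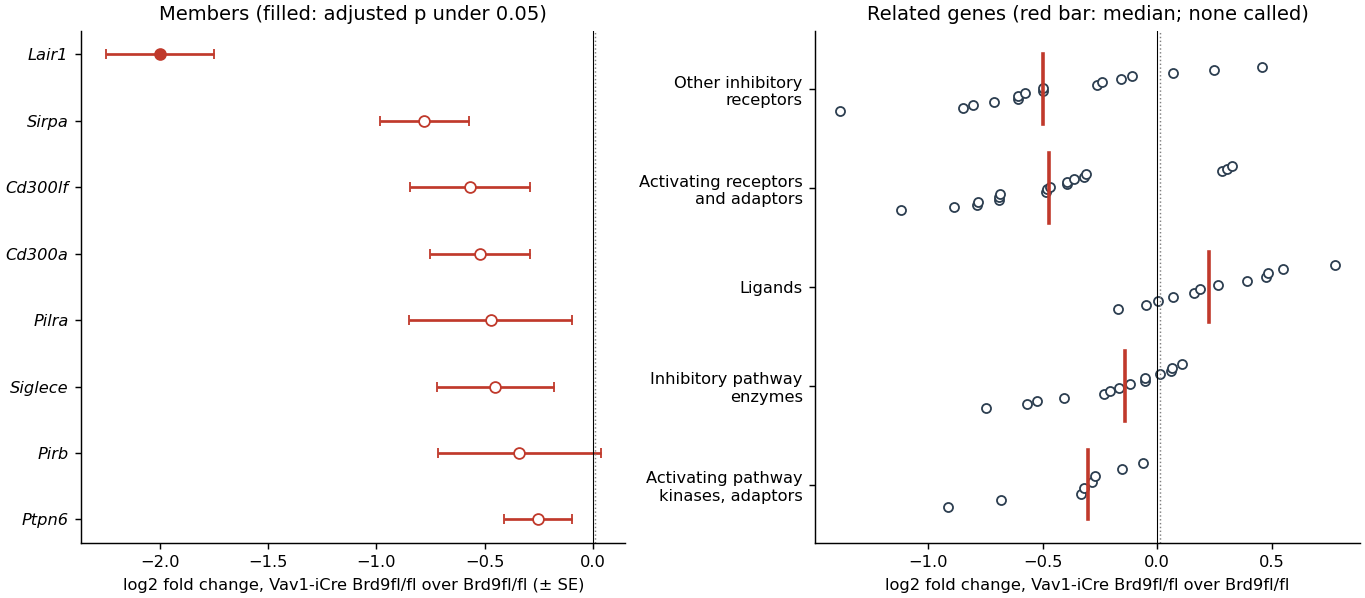
Left, log2 fold change of Vav1-iCre Brd9fl/fl over Brd9fl/fl with its SE for each member (filled, adjusted p under 0.05); right, the same quantity without error bars for each tested gene of 5 lists of related genes, with red bars at the medians. Lair1 at -2.0 stands apart from the other members, which run from -0.78 to -0.25, and the ligand list has a positive median of 0.22; the dotted line marks the median of all genes.

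The members shared an order of libraries within each group. In all 8 of 8 members Vav1-iCre replicate 1 was the lowest and Vav1-iCre replicate 3 the highest of the Vav1-iCre libraries, against 27.9% and 32.9% of all tested genes. In 6 of 8 members control replicate 2 was the highest control, against 40.2% of all genes. Vav1-iCre replicate 1 lay below every control in 8 members, replicate 2 in 7, replicate 3 in 3 and replicate 4 in 7, against 33.6%, 22.7%, 34.5% and 25.3% of all genes in replicates 1 to 4. As a percentage of the control mean, the other 7 members had a median of 41.5%, 75.5%, 101% and 69.2% in Vav1-iCre replicates 1 to 4. Lair1 stood at 18.04%, 27.2%, 33.1% and 20.8% in the same libraries. The summed neutrophil and monocyte markers followed the same libraries: both were lowest in Vav1-iCre replicate 1, with 1644 and 43.0 CPM, and highest of that group in Vav1-iCre replicate 3, with 3779 and 148 CPM. The eosinophil, basophil and mast cell sum (198 and 713 CPM in replicates 1 and 3) did so too. So did the dendritic cell sum (1.15 and 5.59 CPM) and the B cell sum (4.42 and 8.38 CPM). The sums of the other marker lists did not share both ends. The summed macrophage markers were also lowest in Vav1-iCre replicate 1, with 76.9 CPM, but highest of that group in Vav1-iCre replicate 4, with 132 CPM, against 110.5 CPM in replicate 3. The order was not particular to the members. In Vav1-iCre replicates 1 to 4 the other inhibitory receptors listed below summed to 183, 299, 332 and 251 CPM. Their activating counterparts and adaptors summed to 103, 158.5, 238 and 145 CPM. The sums of the ligands, the inhibitory pathway enzymes and the activating kinases and adaptors did not share it. Without Vav1-iCre replicate 3 the median log2 fold change of the members was -0.75, with 1 member called, and without Vav1-iCre replicate 1 it was -0.32, also with 1 called.

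**Figure D3:**
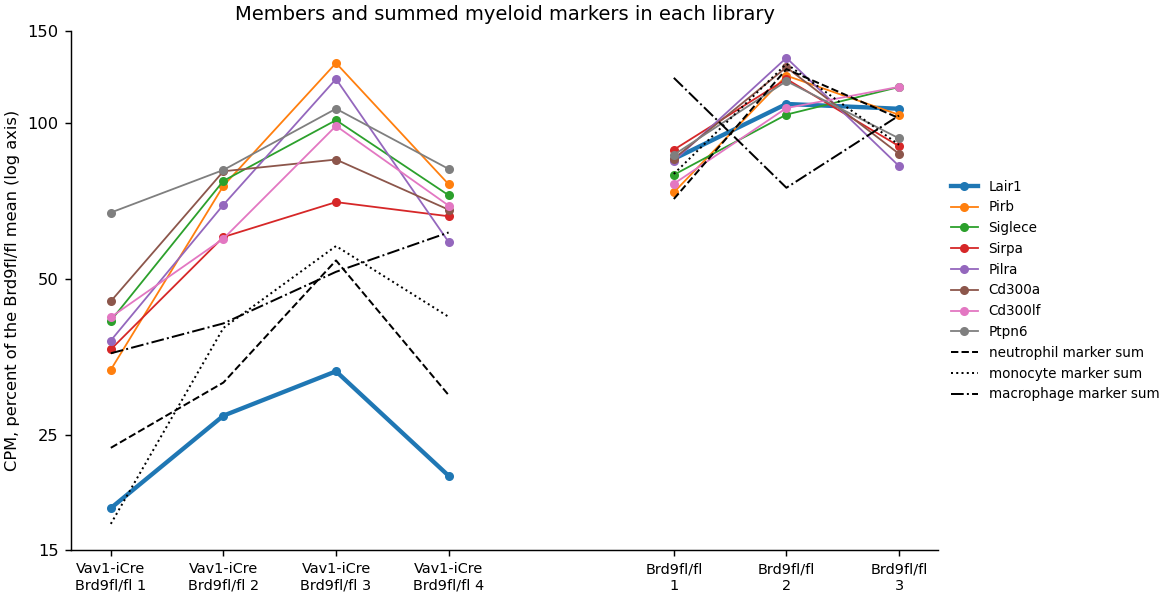
CPM of each member, and of 3 summed marker lists (black lines), as a percentage of the Brd9fl/fl mean on a log axis, in the 4 Vav1-iCre Brd9fl/fl libraries (left) and the 3 Brd9fl/fl libraries (right); lines only join the values of one gene or list. The members other than Lair1 reach a median of 101% in Vav1-iCre replicate 3, where Lair1 is at 33.1%.

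Lair1 was also compared with other genes within each library, a comparison chosen after the values were seen. Per 100 reads of Ptpn6, the libraries held 1.04, 1.30, 1.21 and 0.993 Lair1 reads in Vav1-iCre embryos and 3.81, 3.50 and 4.42 in controls. Per 100 reads of Sirpa there were 2.70, 2.47, 2.58 and 1.73 Lair1 reads in Vav1-iCre libraries and 5.24, 4.89 and 6.45 in controls. Both ratios separated the groups without overlap. The ratio to Spi1 also separated them, at 2.11 to 2.77 Lair1 reads per 100 in Vav1-iCre libraries and 5.44 to 7.38 in controls.

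Against Csf1r, Adgre1 and Ly6c2, genes of the monocyte and macrophage lists, the picture was mixed. Per 100 reads of Csf1r, the receptor for macrophage colony-stimulating factor, Lair1 had 7.30, 3.86, 3.28 and 2.67 reads in Vav1-iCre libraries and 7.49, 7.67 and 10.7 in controls, so that Vav1-iCre replicate 1 came close to the lowest control. Per 100 reads of Adgre1, the macrophage antigen F4/80, the ratio was 13.5 ± 6.4 in Vav1-iCre libraries (SD, n = 4) and 23.4 ± 6.6 in controls (SD, n = 3), and the groups overlapped. Per 100 reads of Ly6c2, a marker of inflammatory monocytes, it was 18.7 ± 4.1 in Vav1-iCre libraries and 20.3 ± 5.5 in controls, likewise overlapping. Ly6c2 itself had 7.30 ± 3.23 CPM in Vav1-iCre libraries and 27.1 ± 9.4 CPM in controls (log2 fold change -1.89, edgeR adjusted p = 0.0547). Csf1r, Spi1, Adgre1 and Ly6c2 were picked after their values were seen, and no ratio to other markers was taken. In the neutrophil, monocyte and macrophage lists, Camp, F13a1, Fcnb, Clec4f, Elane and Cd5l fell more than Lair1. Their log2 fold changes were -5.3, -3.51, -3.12, -2.99, -2.89 and -2.82, with Clec4f and Cd5l not called in edgeR. The other tested markers of these lists fell less, or rose in the case of Mmp8 and Cd68.

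**Figure D4:**
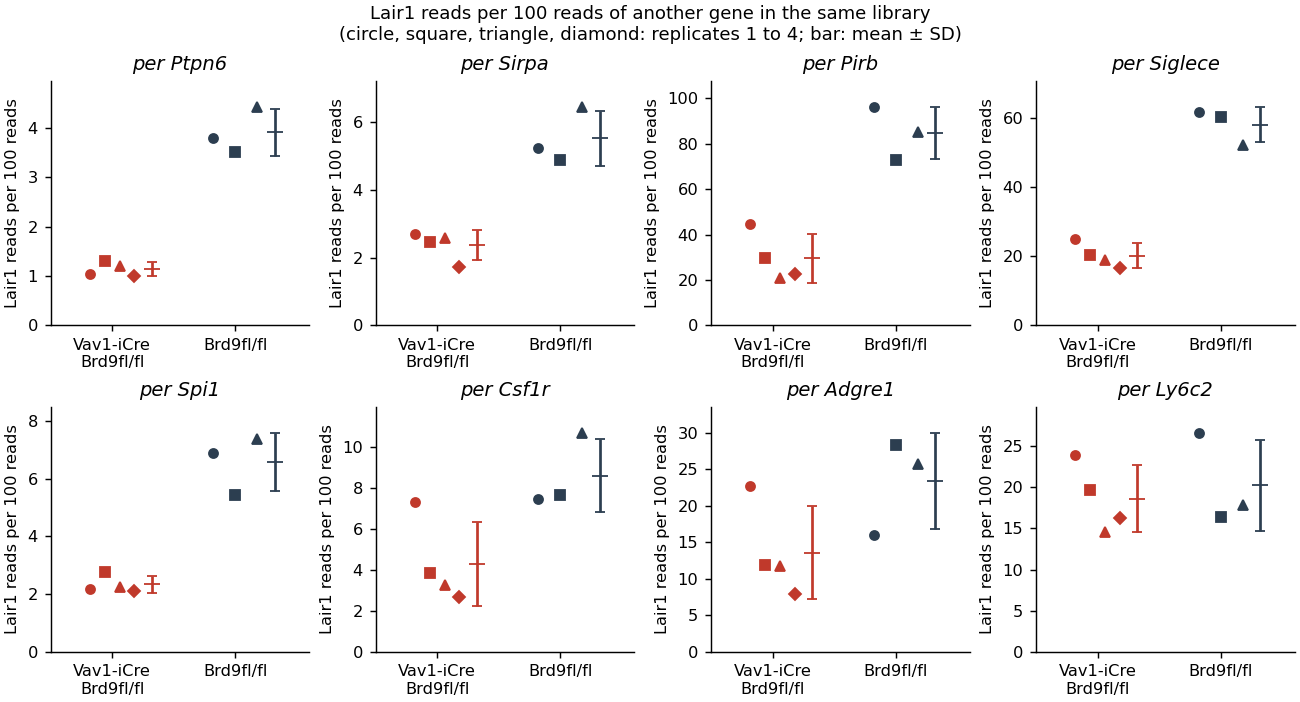
Lair1 reads per 100 reads of another gene in the same library (vertical axes from 0), in the 4 Vav1-iCre Brd9fl/fl libraries (left, red) and the 3 Brd9fl/fl libraries (right, dark), with mean ± SD. The groups are separate for Ptpn6, Sirpa, Pirb, Siglece and Spi1, nearly touch for Csf1r and overlap for Adgre1 and Ly6c2.

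The genes whose pattern over the 7 libraries was nearest to that of Lair1 were Pxylp1, Slc28a2, Mpo, Hp and Nrg2. Likeness was the root mean square difference of log2 CPM, each gene centred on the mean of its group means, and it was 0.17, 0.19, 0.23, 0.24 and 0.24 log2 units for these genes. Pxylp1, a phosphatase of proteoglycan synthesis, had 10.6 ± 2.1 CPM in Vav1-iCre libraries and 36.5 ± 10.1 CPM in controls. Slc28a2, a nucleoside transporter, had 4.08 ± 0.70 CPM in Vav1-iCre libraries and 14.3 ± 2.7 CPM in controls. Mpo, the myeloperoxidase of neutrophil granules, had 1122 ± 348 CPM in Vav1-iCre libraries and 3508 ± 999 CPM in controls, and Hp, haptoglobin, had 38.6 ± 16.1 CPM in Vav1-iCre libraries and 121 ± 32 CPM in controls. Nrg2, neuregulin 2, had 1.84 ± 0.78 CPM in Vav1-iCre libraries and 8.66 ± 2.08 CPM in controls. All 5 were called lower in edgeR, with log2 fold changes between -2.22 and -1.64. The centring used for likeness keeps the difference between the groups. Genes near Lair1 were therefore bound to be lower in the Vav1-iCre libraries, and nothing is read from these calls. Symbols averaging below 1 CPM were not ranked. Among 11741 genes ranked this way, the nearest other member was Sirpa, at rank 173 with 0.62 log2 units, and the farthest was Ptpn6, at rank 932 with 0.86.

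Per kilobase of exon, Ptpn6 was the most abundant member and Lair1 the least. In CPM per kb of GENCODE exon, Ptpn6 averaged 42.7 in Vav1-iCre libraries and 50.9 in controls, and Sirpa 12.9 in Vav1-iCre libraries and 22.2 in controls. Siglece averaged 3.54 CPM per kb in Vav1-iCre libraries and 4.84 in controls, Cd300lf 2.58 and 3.84, and Cd300a 2.34 and 3.36, in the same order of groups. Pirb averaged 1.28 CPM per kb in Vav1-iCre libraries and 1.63 in controls, Pilra 0.679 and 0.944, and Lair1 0.178 and 0.716. Neighbours in this order whose control ranges overlapped were Siglece and Cd300lf, Cd300lf and Cd300a, and Pirb and Pilra. Lair1 and Pilra were apart in the Vav1-iCre libraries, with at most 0.237 CPM per kb for Lair1 and at least 0.358 for Pilra. In the controls they all but touched, at up to 0.7781 for Lair1 and from 0.7782 for Pilra. The exon lengths are those of the annotation used here and may differ from those the authors counted over.

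**Figure D5:**
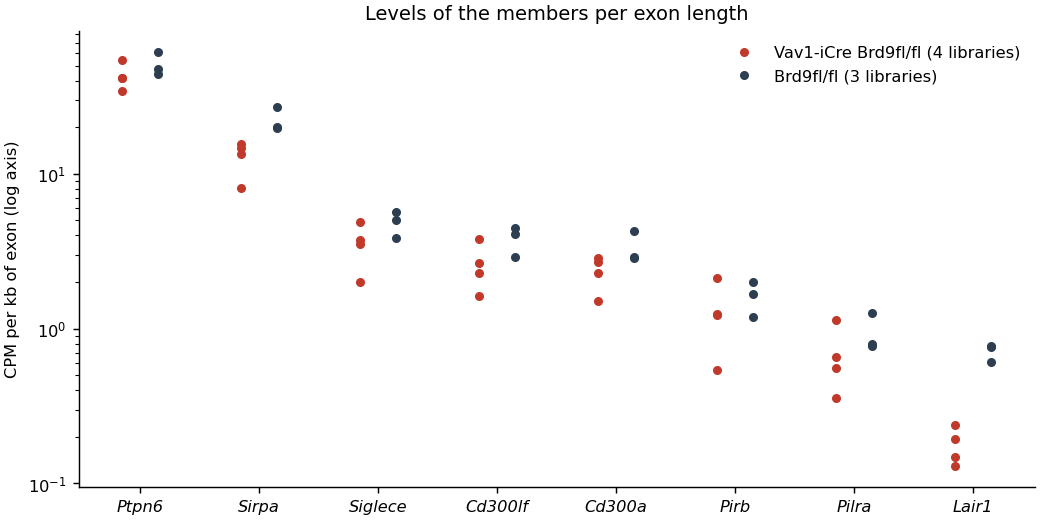
Level of each member in CPM per kilobase of exon on a log axis, 1 point per library, with Vav1-iCre Brd9fl/fl libraries (red) left of Brd9fl/fl libraries (dark). Ptpn6 and Sirpa stand above the other members in both groups, and Lair1 is lowest.

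The other inhibitory receptors, 19 by list of which 16 were tested, had no called member in edgeR. At an unadjusted p under 0.05, 6 were lower and 0 higher (6.90% and 3.95% of all genes, also for the counts at this level in the lists that follow), DESeq2 called 2 lower and limma-voom 0, and the median log2 fold change was -0.50, against 0.011 over all genes. Clec4a2, an ITIM-bearing lectin receptor of dendritic and myeloid cells, had 2.62, 5.64, 10.04 and 5.31 CPM in Vav1-iCre libraries and 11.0, 18.9 and 16.6 CPM in controls, without overlap (log2 fold change -1.39, SE 0.37, edgeR adjusted p = 0.169, DESeq2 adjusted p = 0.0068). Ceacam1, an adhesion receptor with ITIMs, had 20.5 ± 5.5 CPM in Vav1-iCre libraries and 36.9 ± 11.8 CPM in controls (log2 fold change -0.85, edgeR adjusted p = 0.254, DESeq2 adjusted p = 0.0449). Vsir, the checkpoint receptor VISTA, had 39.7 ± 9.6 CPM in Vav1-iCre libraries and 60.6 ± 15.9 CPM in controls (log2 fold change -0.61, edgeR adjusted p = 0.328).

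The activating counterparts and their adaptors had 0 called in edgeR among 18 tested of 28 listed. Unadjusted, 5 were lower and 0 higher, DESeq2 called 1 lower and limma-voom 0, and the median log2 fold change was -0.47. Clec5a, a Tyrobp-coupled lectin receptor, was the one called by DESeq2. It had 17.2, 17.4, 25.4 and 15.3 CPM in Vav1-iCre libraries and 28.0, 50.05 and 44.6 CPM in controls, without overlap (log2 fold change -1.12, SE 0.22, edgeR adjusted p = 0.0700, DESeq2 adjusted p = 1.8e-04). EdgeR called Clec5a without control replicate 1 (adjusted p = 0.0256) and without Vav1-iCre replicate 3 (adjusted p = 0.0284). Trem1, an amplifier of neutrophil and monocyte activation, had 5.61 ± 0.99 CPM in Vav1-iCre libraries and 9.04 ± 2.26 CPM in controls (log2 fold change -0.69, edgeR adjusted p = 0.261), and Fcgr1, the high-affinity IgG receptor, 2.16 ± 0.78 CPM in Vav1-iCre libraries and 3.73 ± 0.68 CPM in controls (-0.78, edgeR adjusted p = 0.369). The ITAM adaptors Tyrobp and Fcer1g, chosen after their values were seen, had log2 fold changes of -0.47 (SE 0.37) and -0.32 (SE 0.26) with overlapping groups.

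Inhibitory receptors were set against activating relatives in 3 pairs, chosen after their values were seen. Per 100 reads of Pira2, an activating partner of Pirb, there were 315, 323 and 303 Pirb reads in Vav1-iCre replicates 2 to 4 and 319, 325 and 341.5 in the controls. Vav1-iCre replicate 1 had 760, from 38 Pirb reads and 5 Pira2 reads. The Pilra to Pilrb1 ratio was 104 ± 11 per 100 in Vav1-iCre libraries and 105 ± 28 in controls, with single libraries between 75.4 and 131.6. For each 100 reads of Cd300lb, an activating CD300 receptor, there were 478, 290, 215 and 192 Cd300a reads in Vav1-iCre libraries and 565, 376 and 434 in controls, so that Vav1-iCre replicates 2 to 4 lay below every control and replicate 1 within their range. Pira and Pirb genes, and Pilra and Pilrb genes, are close in sequence, so that the counting may have split or lost their reads.

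Differences of the members' ligands were small or positive in most cases. Of 12 tested ligand genes, 0 were called in edgeR, limma-voom or DESeq2 and 0 were under an unadjusted p of 0.05, 10 had a positive log2 fold change, and the median was 0.22. Cd47, the Sirpa ligand, had 189, 204, 189 and 200 CPM in Vav1-iCre libraries and 190, 216 and 201 CPM in controls (log2 fold change -0.05, SE 0.075; chosen after its values were seen). B2m, the light chain of class I MHC, had 156 ± 11 CPM in Vav1-iCre libraries and 176 ± 10 CPM in controls (-0.17, edgeR adjusted p = 0.493), and H2-K1, a class I heavy chain, 135 ± 8 CPM in Vav1-iCre libraries and 121 ± 9 CPM in controls (0.16, edgeR adjusted p = 0.505). Col4a2, a basement membrane collagen, had 26.5 ± 2.4 CPM in Vav1-iCre libraries and 23.3 ± 3.3 CPM in controls. Col1a1, a fibrillar collagen also chosen after its values were seen, varied between libraries more than between groups, at 20.3, 4.52, 33.2 and 4.63 CPM in Vav1-iCre libraries and 3.50, 5.09 and 24.97 CPM in controls.

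Enzymes that act with Ptpn6 had no called member among 14 tested in edgeR, DESeq2 or limma-voom, 2 lower at an unadjusted p under 0.05 and a median log2 fold change of -0.14. Fgr, a myeloid Src-family kinase, had 5.70 ± 1.81 CPM in Vav1-iCre libraries and 9.59 ± 3.43 CPM in controls (-0.75, edgeR adjusted p = 0.426), and Fes, a kinase of myeloid cells, 56.1 ± 15.4 CPM in Vav1-iCre libraries and 83.2 ± 25.9 CPM in controls (-0.57, edgeR adjusted p = 0.440). Inpp5d, the lipid phosphatase SHIP-1, had 115 ± 13 CPM in Vav1-iCre libraries and 133 ± 13 CPM in controls (-0.21, edgeR adjusted p = 0.526). Ptpn11 (SHP-2), the close relative of Ptpn6 and chosen after its values were seen, had a log2 fold change of -0.05 (SE 0.17).

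On the activating side, the 8 tested kinases and adaptors all had negative log2 fold changes, with a median of -0.30. None was called in edgeR or limma-voom, 2 were lower at an unadjusted p under 0.05, and DESeq2 called both of those. Pik3ap1, an adaptor that brings in PI3 kinase, had 21.1, 19.7, 22.8 and 21.3 CPM in Vav1-iCre libraries and 29.1, 40.3 and 32.8 CPM in controls, without overlap (log2 fold change -0.68, SE 0.12, edgeR adjusted p = 0.0547, DESeq2 adjusted p = 3.2e-04). Card9, an adaptor of ITAM-coupled lectin receptors, had 20.6 ± 4.8 CPM in Vav1-iCre libraries and 38.9 ± 12.5 CPM in controls (-0.91, edgeR adjusted p = 0.156, DESeq2 adjusted p = 0.0091). Vav1, the exchange factor whose promoter drives the recombinase, had 79.9 ± 8.8 CPM in Vav1-iCre libraries and 100 ± 26 CPM in controls (-0.33, edgeR adjusted p = 0.502).

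Genes lying near the members were not called. Within 250 kb of Lair1, 6 other genes were tested, 0 were called, 0 passed an unadjusted p of 0.05 in either direction, and their median log2 fold change was 0.16. Around Pirb 13 genes were tested, around Cd300a 8 and around Cd300lf 13, again with 0 called in edgeR. Around Siglece, Pilra, Ptpn6 and Sirpa 10, 19, 20 and 2 genes were tested and 0 called. At an unadjusted p under 0.05, against 6.90% lower and 3.95% higher over all genes, 3 of 10 around Siglece, 1 of 19 around Pilra and 1 of 13 around Cd300lf were lower, and 3 of 20 around Ptpn6 and 1 of 2 around Sirpa were higher.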

How the data were processed

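PolyA RNA (TruSeq Stranded kit) of bead-selected lineage-negative cells was sequenced in 7 libraries. Per the submitters' processing notes, HISAT2, mm10, featureCounts and DESeq2 were used; the sources used here do not give versions, annotation or strand setting. The authors deposited raw read counts per symbol, 14 of them date-like. The authors' deposited table holds log2 fold changes, p-values and a test score. Its per-library signal is each raw count over 1 constant per library (0.855 to 1.14), so the authors' signal carries no further scaling. Genes were kept with filterByExpr, scaled by TMM and tested over all 7 libraries with edgeR 4.0.16 (quasi-likelihood, group only; R 4.3.3), called at a Benjamini-Hochberg adjusted p under 0.05. SEs are the log2 fold change over the root of F; CPM use TMM-scaled totals, log2 CPM a prior count of 2. Alternatives used DESeq2 1.42.0, limma-voom 3.58.1, other scalings and filters, a replicate block and each library left out. The members and lists were chosen with earlier results of these data known. Named genes are the members, Brd9, the 3 of each related list with the smallest p, leading markers and the 5 genes nearest Lair1; others are said to be chosen afterwards. No 2 libraries of a group agreed within sampling noise (chi-square per degree of freedom 8.50 or more). Sequences are from RefSeq, GRCm38.p6.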

Additional observations from a re-analysis of the deposited data

Results flagged for a closer look

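Chance flags about 1 in 20 groups of 4, and 63 genes and marker sums were looked at, of which 3 were flagged, a number near that rate. Some sums contain genes also looked at singly, so the 63 are not independent. The rate does not say whether a given flag is chance. The first 2 below are 1 observation, since Cd3g is part of the T and NK cell list. Cd3g, a T cell receptor complex gene, had 18.2 CPM in Vav1-iCre replicate 3, far above the 0.437 to 1.02 CPM of the other Vav1-iCre libraries. That library also held 103 reads of Cd3d and 73 of Cd3e, against at most 1 and 0 in each other library. The summed T and NK cell markers had 40.3 CPM in the same library, against 8.81 to 10.1 CPM in the others of that group. The summed progenitor markers had 649 CPM in Vav1-iCre replicate 1, below the 836 to 866 CPM of the other Vav1-iCre libraries. Vav1-iCre replicates 1 and 3 are also the libraries in which the 8 members were lowest and highest of that group; the part of these transcripts in the members' values was not tested.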

How the results depend on the processing

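Over 15 alternatives the log2 fold change of Lair1 ran from -2.17 to -1.89 and kept its call in 13, with adjusted p from 2.3e-09 to 0.0712; it lost the call without control replicate 3 or Vav1-iCre replicate 2. The values that left out 1 library ran from -2.17 to -1.89 for Lair1, from -1.60 to -1.42 for Brd9, from 20 to 120 called genes, from 0 to 1 called members, from 0 to 2 called genes of the related lists, and from -0.75 to -0.32 for the members' median log2 fold change. Called genes were 49 and 20 without control replicates 2 and 3, and 51, 21 and 37 without Vav1-iCre replicates 1, 2 and 4; the list genes reached 2 without control replicate 1 and without Vav1-iCre replicate 3. With no filter 228 genes, 2 members and 4 genes of the related lists were called, and with DESeq2 386, 2 and 5, against 82, 1 and 0 as reported; the second member was Sirpa both times. Robust dispersion called 1 gene of the related lists, Pik3ap1. No member changed sign under any of the 15. Whether same-numbered libraries were paired is not given in the sources used here. Correlations of same-numbered deviations were 0.17, -0.022 and -0.0052, against -0.194 to 0.129 for differently numbered libraries, which does not settle it. With the replicate block 121 genes, 1 member and 1 gene of the related lists were called. The planned comparison of protein motif patterns was not run. Lair1 and Pilra rest on the fewest reads of the members. With the replicate block 5 members were lower at an unadjusted p under 0.05, against 3 as reported.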

Other observations

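Lilra5, an activating receptor gene that did not pass the filter on low counts, had 0, 0, 0 and 2 reads in Vav1-iCre replicates 1 to 4 and 6, 8 and 9 reads in control replicates 1 to 3. It was chosen after its values were seen.

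Cd300lb, an activating receptor of the CD300 family, had 1.47, 4.34, 6.16 and 5.51 CPM in Vav1-iCre libraries and 2.35, 5.30 and 3.13 CPM in controls, a log2 fold change of 0.28 (SE 0.44, edgeR adjusted p = 0.851), and was also chosen after its values were seen.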
